A study of Rattus norvegicus with 4 samples.

Results

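S100a8 and S100a9, the genes of the calgranulins, were described across 4 microarrays of rat fracture callus, the tissue that forms around a broken bone and bridges it. They are 2 of 20174 genes on the array, found by their Ensembl IDs ENSRNOG00000011557 (S100a8) and ENSRNOG00000011483 (S100a9). Both were chosen by their diabetic minus control intensity differences on these arrays, for a large fall that was alike on both days. The differences between conditions below are therefore a description and carry no test. The array files hold IDs without symbols, and the pairing of the IDs with these symbols came with the choice of genes.

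The animals were male Sprague–Dawley rats of 12 weeks. Diabetic rats had been given 40 mg/kg streptozotocin, a toxin of insulin-producing beta cells, intravenously, and their blood glucose was above 300 mg/dl. Control rats had a sham injection of sodium chloride and normal blood glucose. All animals had a wire placed in the femoral canal and a closed transverse fracture of the femoral shaft, and callus was taken on day 5 or day 11. Callus of 5 animals was pooled for each of the 4 combinations of condition and day, and each pool was measured on 1 array. No difference has a replicate check, and the spread between animals was averaged out in the pools. The toxin was given to the diabetic pools only, so its own effects and those of diabetes cannot be told apart. No other ID was paired with a symbol, so the callus could not be checked against cartilage, bone, neutrophil or muscle markers.

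S100a8 and S100a9 encode small calcium-binding proteins that pair as calprotectin. The pair is made in large amounts by neutrophils and monocytes, binds zinc and manganese, and is released at sites of inflammation, where it acts on the receptors Tlr4 and Ager (RAGE). Both genes are widely used as markers of neutrophils and of recently recruited monocytes, which are among the first immune cells in a fracture haematoma. Activated epithelium such as injured skin also makes both proteins. In bulk tissue, fewer cells of such a type and less RNA per cell cannot be told apart. In the RefSeq annotation of GRCr8 both genes lie on chromosome 2 in the cluster of S100 genes, next to each other with 0 annotated genes between them. S100a7a lies on the other side of S100a8 and Pglyrp4 on the other side of S100a9. Of 20 protein-coding S100 genes in that annotation, 16 are on chromosome 2.

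The promoter of S100a9 is shown because the pair lie side by side and differ between the arrays together. The RefSeq promoter table matched 1 of the 2 genes. The window runs from 250 bases before to 50 bases after the annotated start on the minus strand at chr2:178490573-178490872 of GRCr8. Capitals mark a TATA box.
S100a9 promoter: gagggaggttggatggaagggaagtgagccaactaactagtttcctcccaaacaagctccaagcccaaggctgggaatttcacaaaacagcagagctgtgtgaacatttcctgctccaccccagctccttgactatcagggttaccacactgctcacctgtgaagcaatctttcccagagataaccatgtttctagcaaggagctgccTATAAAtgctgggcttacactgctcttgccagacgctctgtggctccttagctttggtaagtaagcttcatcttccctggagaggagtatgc

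Motifs were searched in this window on both strands, and none of the matches overlapped another. TATAAA was found once, 42 to 37 bases before the start, and 14.2% of 33469 promoters of the same length hold it. GAGGAA, the core bound by the myeloid factor PU.1, had 1 match, on the minus strand of the gene 209 to 204 bases before the start, and 27.6% of promoters hold it. TTNNGNAA, a loose form of the site of C/EBP factors, which drive granulocyte genes, had 2 matches, and 41.3% of promoters hold it. Its match on the minus strand of the gene lies 173 to 166 bases before the start, and the other lies 10 to 17 bases after the start. CANNTG, the E-box, had 1 match and is held by 72.1% of promoters. TTCNNNGAA, the STAT site, had 0 matches in this window and is held by 8.87% of promoters. A match describes the letters of the window and is not a measured binding site.

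Calgranulin signal was high in control callus and low in diabetic callus on both days. The S100a9 spot had a median intensity of 8168 in control callus against 199.6 in diabetic callus on day 5, and of 8481 in control callus against 163.0 in diabetic callus on day 11. Both control arrays were high and both diabetic arrays were low, as the choice of these genes required. The S100a8 spot had a median intensity of 3923 in control callus against 100.4 in diabetic callus on day 5, and of 3460 in control callus against 86.2 in diabetic callus on day 11. It followed the same order, which the choice of genes had also used. The genes are read by different probes, so the level of one says nothing of the level of the other.

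**Figure D1:**
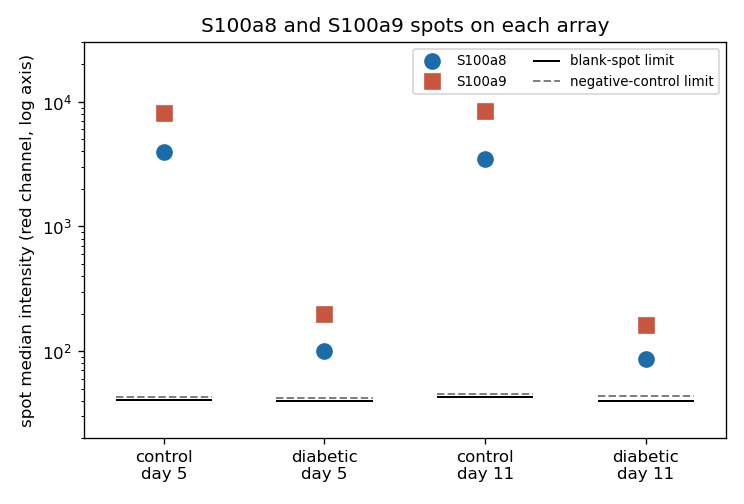
Spot median intensity on a log axis for S100a8 and S100a9 on each of the 4 arrays, with 1 spot per gene and array and no error bar. Short lines give the limits set on blank spots (solid) and on negative control spots (dashed). Control spots lie at 3460 or above, and diabetic spots lie between 86.2 and 199.6, above both limits.

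Signal of both genes stayed measurable in diabetic callus. The limit was the mean plus 2 SD of the trimmed blank spots, and lay between 40.1 and 42.5 on the 4 arrays. Both genes were above it on all 4 arrays, and also above the limit set in the same way on the 96 negative control spots, which lay between 42.1 and 44.8. The difference between conditions is therefore a ratio of signals above these limits. Whether all of the signal left in diabetic callus came from the genes themselves was not tested. Net signal, the spot median minus the mean of the blank spots, was 161.3 for S100a9 and 62.1 for S100a8 in diabetic callus on day 5. On day 11 it was 124.4 for S100a9 and 47.7 for S100a8. Relative to control callus of the same day, the net signal left in diabetic callus was 1.98% on day 5 and 1.47% on day 11 for S100a9. For S100a8 it was 1.60% on day 5 and 1.39% on day 11. As ratios these are 50.4-fold and 67.8-fold lower for S100a9, and 62.6-fold and 71.7-fold lower for S100a8.

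For a comparison with all other genes, intensities were background corrected with an added 50 units, quantile normalized and taken as log2. The added 50 units are close to the net signal of S100a8 in diabetic callus, so this scale understates its difference. On it, the diabetic minus control log2 difference of S100a9 was -5.10 on day 5, 34.2-fold lower, and -5.52 on day 11, 45.9-fold lower. That of S100a8 was -4.94 on day 5, 30.8-fold lower, and -5.03 on day 11, 32.6-fold lower. S100a9 had the lowest and S100a8 the next lowest difference of all genes tested on each day, 17030 on day 5 and 16732 on day 11. Counting rises as well as falls, on day 5 the difference was larger in size for 1 gene than for S100a9 and for 2 than for S100a8. On day 11 it was larger for 8 genes than for S100a9 and for 15 than for S100a8. At least 2-fold lower in diabetic callus were 0.975% of genes on day 5, 2.1% on day 11 and 0.547% on both days. In the 25% of genes with the highest mean level this share was 2.48% on day 5 and 4.82% on day 11. At least 16-fold lower were 5 genes on day 5 and 4 genes on day 11. S100a8 and S100a9 were the 2 genes at least 16-fold lower on both days, 0.0124% of 16101. The rule that chose them used these values, so nothing is read from the ranks.

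**Figure D2:**
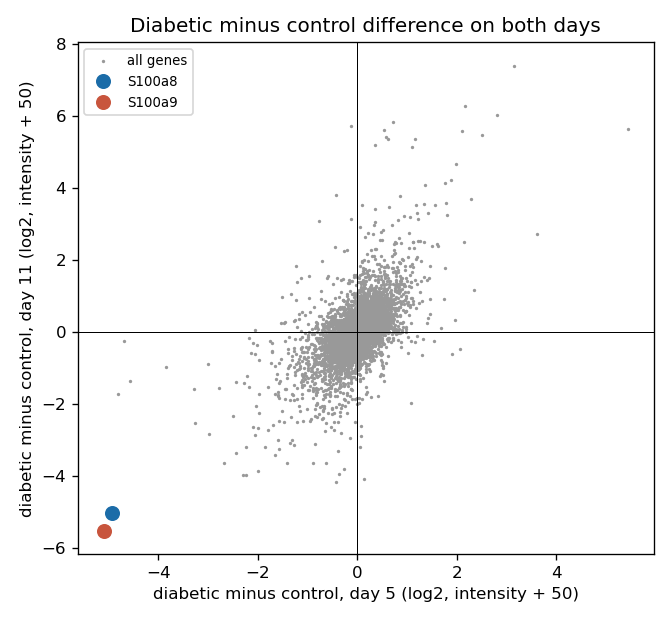
Diabetic minus control log2 difference on day 5 (horizontal) and day 11 (vertical) on the intensity + 50 scale, 1 point per gene above the blank-spot limit on any array. S100a8 at -4.94 and -5.03 and S100a9 at -5.10 and -5.52 lie at the lower left, apart from the other genes.

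The exact place of the pair among all genes depends on the background. In the authors' deposited table, where no units are added, S100a9 was 40.8-fold lower on day 5 and 57.9-fold lower on day 11. In the same table from the authors, S100a8 was 50.6-fold lower on day 5 and 61.2-fold lower on day 11. Its values put S100a8 in place 6 and S100a9 in place 8 from the lowest on day 5, and in places 5 and 6 on day 11. There, 6 genes including both calgranulins were at least 16-fold lower on both days. Plain subtraction of the blank level gave 27 such genes, and that of the local background gave 20, both calgranulins among them each time. Under these 2 settings the calgranulins stood in places 141 to 275 from the lowest. With the local background column of the files used in the correction, the S100a8 difference of day 11 shrank to -3.50, place 10 from the lowest, and S100a9 alone remained at least 16-fold lower on both days. Both genes stayed at least 2-fold lower on both days in each of the 7 other ways of computing the values.

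**Figure D3:**
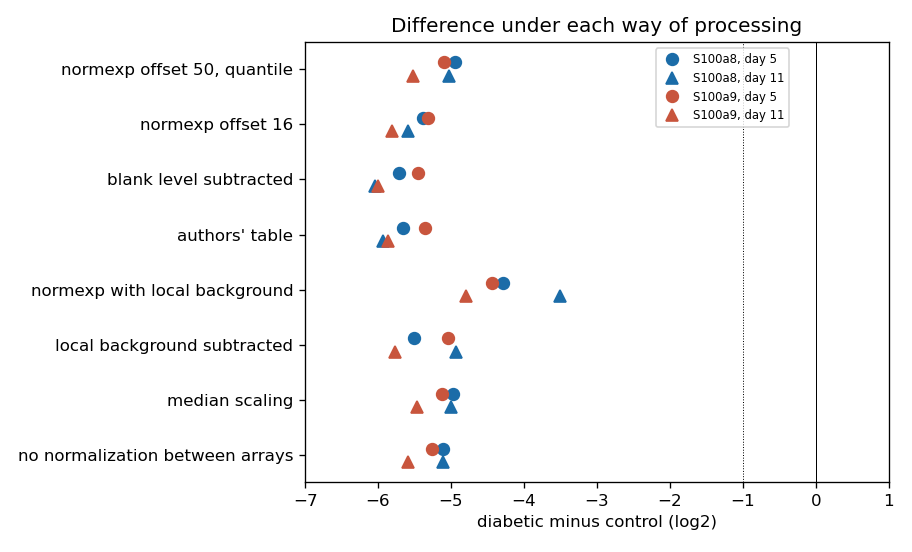
Diabetic minus control log2 difference (horizontal) of S100a8 and S100a9 on day 5 and day 11 under 8 ways of processing, 1 point each. The dotted line marks 2-fold lower, and every point lies between -6.05 and -3.50, well to its left.

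The differences between days were not themselves used to choose these genes. The choice of a fall alike on both days did favour day differences that were alike in control and diabetic callus. In control callus S100a9 differed by 0.08 on the log2 scale between day 11 and day 5, with net signals of 8440 and 8129. S100a8 differed by -0.20, with net signals of 3420 and 3885. These are 1.06-fold and 1.15-fold differences, and both control arrays were near each other for both genes. With the local background column the S100a8 difference was larger, at -0.93 in the correction and -0.98 when subtracted. The sign of the S100a9 difference turned in the authors' deposited table, at -0.09 beside a median of -0.14 over its genes. It also turned with the local background, at -0.15 both in the correction and when subtracted, and with median scaling, at -0.03. For comparison, between these 2 arrays 1.68% of 16893 genes differed at least 2-fold, and 51.6% of genes had a smaller difference than S100a9 and 75.6% a smaller one than S100a8.

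In diabetic callus both genes had a somewhat lower signal on day 11. The day 11 minus day 5 log2 difference was -0.34 for S100a9 and -0.28 for S100a8, and the net signals of day 11 were 77.1% and 76.8% of those of day 5. This is under 2-fold for both, where 1.35% of 16803 genes were at least 2-fold apart and 0.315% at least 2-fold lower. The difference was larger in size for 1851 genes than for S100a9 and for 2513 genes than for S100a8. In the authors' deposited table the difference was -0.60 for S100a9 and -0.61 for S100a8, beside a median of -0.11 over all genes of that table. No test was taken for the differences between days: with 4 arrays the residual is how far the diabetes difference changed between days, and the choice of these genes had already favoured a small one. That change was -0.43 for S100a9 and -0.09 for S100a8, and 87.3% and 43.0% of 16101 genes changed less. The sign for S100a8 depends on the background, since the change was 0.57 with the local background subtracted and 0.78 with that column in the correction.

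Spots of 1 probe repeated within an array give the scale of spot-to-spot error. Positive control 1, at 24 spots, had an SD of 0.12 to 0.17 on the log2 scale within the 4 arrays. The differences of both calgranulins between days in control callus were of about that size. This SD covers neither labelling nor animals. Positive control 2 was more variable, with an SD of 0.37 to 1.22, and its spots reached down to 250.6 on the diabetic array of day 11. Its mean log2 difference between diabetic and control was -0.12 on day 5 and -0.64 on day 11, against -0.11 and -0.28 for positive control 1.

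The 2 calgranulin spots lie at column 67 and row 8 of their blocks, S100a8 in block 15 and S100a9 in block 17. They passed the quality flag at all 3 scanner gains on every array. Of the 8 spots around S100a9, the nearest bright one was a spot of positive control 1, diagonally next to it. It measured 12057 in control callus against 11127 in diabetic callus on day 5, and 11304 in control callus against 9866 in diabetic callus on day 11. The gene spot in the next column of the same row measured 963.8 and 917.0 on day 5 and 851.7 and 806.3 on day 11. Neither of these neighbours fell as far as S100a9 itself. Directly above S100a9, a dim gene spot was somewhat lower in diabetic callus. Its log2 differences on the spot medians were -0.32 (day 5) and -0.33 (day 11). Diagonally above S100a9, a gene spot was higher in diabetic callus, at 0.07 (day 5) and 0.61 (day 11). Neighbours near the blank level could not show a fall. Whether a local effect on the arrays lowered the S100a9 spot was not tested.

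Around S100a8 the gene spot in the next column was also lower in diabetic callus. It measured 724.8 in control callus against 230.1 in diabetic callus on day 5, and 2097 in control callus against 142.4 in diabetic callus on day 11. Its control value was higher on day 11 than on day 5, where that of S100a8 was lower. Whether signal of one spot reached the other was not tested. The 3 blank spots of the next row measured 36.7 to 40.5 over the arrays. The other 15 of the 16 neighbours of both genes had log2 differences between diabetic and control of -0.35 to 0.66 on the uncorrected spot medians. Among them, 5 were blank or negative control spots, and several gene spots were near the blank level in control callus. Such spots could not show a fall, so the narrow range says little about them. The 22 gene spots at column 67 and row 8 of the other blocks had normalized differences of -0.51 to 0.73 on day 5, and of -0.58 to 3.49 on day 11. Of these, 0 were at least 2-fold lower on either day and 1 was at least 2-fold higher on day 11. Over all genes tested, 0.975% were at least 2-fold lower on day 5 and 2.1% on day 11. At least 2-fold higher on day 11 were 362 of 16732. With 22 spots the counts are near these shares, so nothing is read from them.

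**Figure D4:**
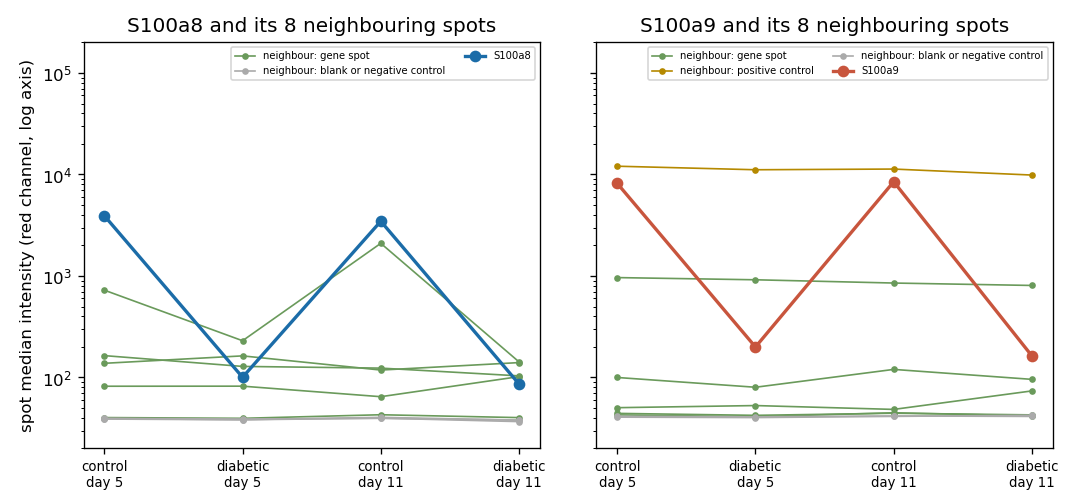
Spot median intensity on a log axis for S100a8 (left) and S100a9 (right) and their 8 neighbouring spots on the 4 arrays. Lines join the values of 1 spot. The calgranulin spots alternate between control and diabetic arrays, the positive control beside S100a9 stays between 9866 and 12057, and 1 gene spot beside S100a8 is also lower in diabetic callus.

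The local background recorded for the calgranulin spots was high wherever the spot itself was bright. For S100a9 it was 4371 in control callus against 77.5 in diabetic callus on day 5, and 5129 in control callus against 109.8 in diabetic callus on day 11. For S100a8 it was 1939 in control callus against 54.1 in diabetic callus on day 5, and 2469 in control callus against 57.2 in diabetic callus on day 11. It amounted to 38.8% to 71.3% of the spot median on the 4 arrays. The blank spot directly below S100a8 had a local background of 37.3 on both control arrays. Between conditions the column thus moved with the spot at these 2 spots. Beside S100a9 it was also lower in diabetic callus where the spot hardly changed. For the gene spot in the next column it was 720.4 in control callus against 357.5 in diabetic callus on day 5, and 739.3 against 640.0 on day 11. For the spot of positive control 1 it was 7086 against 3829 on day 5, and 9254 against 7359 on day 11. Between days the column of the calgranulin spots did not always move with the spot. It was higher on day 11 for both genes in both conditions, and only the control spot of S100a9 was brighter then. What sets this column was not tested. The level of the blank spots was used as background here, and the local column as an alternative.

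S100a8 and S100a9 had nearly the same pattern over the arrays. Both were chosen for a large fall that was alike on both days, which favoured such a likeness, so it is a description only. With each gene's log2 values centred on their mean over the 4 arrays, the root mean square difference between S100a8 and S100a9 was 0.19. Of 17659 other genes above the limit on any array, 0 lay within 1 of the mean of the pair, and 134 lay within 2. The median over these genes was 2.58. The nearest gene, ENSRNOG00000036690, had a root mean square difference of 1.04. Its net signal was 1221 in control callus against 121.4 in diabetic callus on day 5, and 2257 in control callus against 117.6 in diabetic callus on day 11. It too was lower on both diabetic arrays, with log2 differences of -2.69 and -3.65, but its control signal was higher on day 11. The next nearest, ENSRNOG00000024899, had a root mean square difference of 1.11 and log2 differences of -2.24 on day 5 and -3.98 on day 11. The 8 nearest genes had smaller falls between conditions than either calgranulin on both days. This was fixed in advance, since no other gene tested fell as far as the pair on this scale. How near other genes come depends on the scale. In the 7 other ways of computing the values, the root mean square difference between S100a8 and S100a9 was 0.11 to 0.47, and that of the nearest other gene from the mean of the pair was 0.52 to 1.06. Within 1 of the pair were 5 genes in the authors' deposited table, 39 after subtraction of the blank level and 8 after that of the local background. With 4 arrays the measure mostly ranks the size of the fall, and both comparisons of condition enter it.

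**Figure D5:**
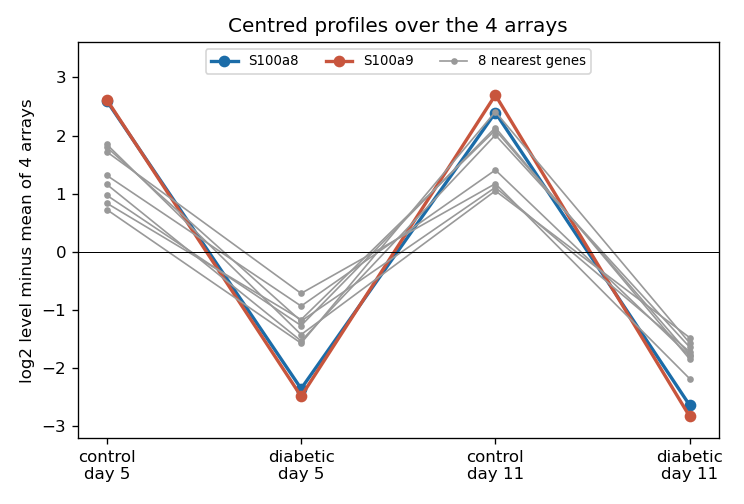
Log2 level minus the gene's own mean over the 4 arrays, for S100a8, S100a9 and the 8 genes with the nearest profile. The calgranulin lines nearly coincide, with a root mean square difference of 0.19, and the grey lines share the alternation between control and diabetic arrays with a smaller swing.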

How the data were processed

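Each of 4 pools was hybridised to 1 single-colour array. Per the labels' protocols, the RNA was amplified as amino allyl aRNA and then labelled with Cy5. Per the file headers, the deposited files give for every spot a median red intensity, a local background median and flags at 3 scanner gains; scanner and probe annotation: not given in the sources used here. Processed intensity values were deposited by the authors as a table too. For bright genes they equalled the spot median minus the trimmed blank-spot mean, times 1 factor per array (0.511 to 0.700).

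Spot medians were corrected in limma 3.58.1 under R 4.3.3 by normexp (offset 50), taking as background the mean of the blank spots without the outer 5% at each end. Without control spots and 13 flagged gene probes, 20161 genes remained and were quantile normalized. The processing was tested on simulated data for the day 5 comparison over 20161 genes: 40 bright genes changed by -4 on the log2 scale came out at a median of -3.06, where the offset alone gives -3.12. Comparisons of 2 arrays used genes over the blank-spot limit on either array. Genes were described by size (2-fold), with no p-value. An additive fit of condition and day would leave as its residual the change of the condition difference between days, which the choice of genes had used. The number of arrays limits the precision.

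None of the IDs could be named from the reference table: 0 of 20174 matched among its 47357 genes. The gene lists (S100 family, receptors, regulators, chemoattractants, housekeeping genes and cell type markers) and every part of the naming rule that needs symbols were therefore not applied. The rule named the members and the 8 genes nearest in pattern, of which 2 IDs are printed. The members, lists and tests were chosen with earlier results of these data known, and the motifs once the promoter had been read. Alternatives were other backgrounds, offsets, scalings, limits on dim genes and the authors' table.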

Additional observations from a re-analysis of the deposited data

How the results depend on the processing

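In the 7 other ways of computing the values, both calgranulins stayed at least 2-fold lower in diabetic callus on both days, with log2 differences of -6.05 to -3.50. Values for S100a8 are given first and for S100a9 second, and those listed moved by more than 0.24 on the log2 scale. This is the largest SD between spots of positive control 1 times the root of 2, for a difference of 2 spots. It only marks which values are listed, and is not the error of 1 spot processed in 2 ways. Positive control 2 varied more, with an SD of 0.37 to 1.22, and both probes were on average far brighter than the calgranulins in diabetic callus. On day 5 the differences were -5.71 and -5.46 with the blank level subtracted, -5.66 and -5.35 in the authors' table, and -4.28 and -4.44 when normexp used the local background. S100a8 was at -5.51 with the local background subtracted and at -5.39 with an offset of 16. On day 11 they were -6.05 and -6.00 with the blank level subtracted, -5.94 and -5.86 in the authors' table, -5.60 and -5.81 with an offset of 16, and -3.50 and -4.80 when normexp used the local background, and S100a9 was at -5.77 with the local background subtracted. The added offset lowers the size of these differences by construction.

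The day 11 minus day 5 difference of S100a8 in control callus was -0.93 when normexp used the local background and -0.98 with it subtracted, close to 2-fold lower. In diabetic callus S100a8 was at -0.53 with the blank level subtracted and at -0.61 in the authors' table. S100a9 was there at -0.60 in that table and at -0.87 with the local background subtracted. The change of the diabetes difference between days for S100a8 was -0.33 with the blank level subtracted. It turned to 0.57 after subtraction of the local background and to 0.78 when normexp used that column, and for S100a9 it was -0.72 with the local background subtracted. The cause of these shifts was not tested.

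Counts of genes at least 2-fold apart moved far more. In the order day 5 and day 11 between conditions, then control and diabetic callus between days, they were 257, 714, 283 and 227. Subtracting the blank level gave 2524, 3555, 2331 and 2293. Subtracting the local background gave 4907, 5744, 4473 and 5645. They were 1291, 2294, 1258 and 1075 in the authors' table, and 407, 1150, 471 and 360 with an offset of 16. When normexp used the local background they were 624, 1015, 554 and 861. Median scaling, no normalization and both other limits on dim genes kept each count within 1.5 times. With the blank level subtracted, 212 genes on day 5 and 140 on day 11 had lower differences than both calgranulins, and 207 and 137 of these were not above the blank-spot limit in diabetic callus. With the local background subtracted there were 196 and 239 such genes, of which 40 and 34 were not above that limit. These counts, and the likeness of profiles under each setting, were added after seeing the data. The alternatives for the gene lists were not run, since no list could be applied. No paired analysis was possible because the labels give no replicate numbers that groups share, and no result comes from a test. The differences are given for each day.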
